A study of Homo sapiens with 6 samples.

Results

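Described are 8 genes of epithelial junctions, apical traffic, the epithelial surface and epithelial transcription, in LOXL2-depleted and control MDA-MB-231 cells: MARVELD2, CLDN4, ELF3, F11R, EPCAM, SPINT1, DSC2 and MAL2. They were chosen by symbol from the authors' deposited table of log ratios, with their listed values known, and make up 10 of its 724 entries and 8 of the 650 genes it could be matched to. MDA-MB-231 is an established human breast cancer line with mesenchymal features and no oestrogen receptor. Both groups carried a lentiviral short hairpin, directed at LOXL2 in 3 samples (shLOXL2) and a control sequence in the other 3 (shControl), and total RNA was hybridised to Affymetrix whole-transcript arrays. The labels name no clone, time after infection or separate cultures, so the spread between arrays may be technical. For 2 of the 3 control arrays, replicates 2 and 3, the source name reads shLOXL2, against their title and knockdown field. They were kept as controls.

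Epithelial cells are joined by tight junctions, which seal the space between neighbours, by adherens junctions, and by desmosomes, which anchor keratin filaments. Claudins and MARVEL-domain proteins form the strands of the tight junction, and polarity complexes keep the apical membrane apart from the basolateral one. Cells that pass through an epithelial to mesenchymal transition lose many of these proteins, and repressors such as SNAI1 and ZEB1 bind E-boxes in the promoters of several of their genes. LOXL2 is a secreted amine oxidase that crosslinks collagen and elastin. It has also been described in the nucleus and as a partner of SNAI1.

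Values of the members come from the authors' deposited table alone, which gives 1 log ratio per entry, with no replicate error and no level in either group. Its header states neither the log base nor the direction. It was read as log2 of shLOXL2 over shControl, since its lowest entry, -3.04, is that of the targeted gene, LOXL2. The knockdown was therefore not checked independently of the sign. The arrays hold log2 values of 32321 probe sets identified by number, and no source used here pairs these numbers with genes, so no member has a value per array. The identity of the line could not be checked on the arrays either. Of 6 markers expected in it, CAV1 alone had an entry in the authors' deposited table (-0.985), and none of 6 markers expected to be absent had one. In bulk RNA, fewer cells of a type and less RNA per cell cannot be told apart.

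Of the 8 genes, 7 were listed higher in shLOXL2 cells in the authors' deposited table, from 0.59 to 1.54, and DSC2 had a negative value, -0.73. Of all 649 genes with entries of a single sign, 57.5% were listed higher and 42.5% lower. The members were chosen on these values, so nothing is read from that difference. Their median listed log ratio was 0.70, against 0.56 over all genes of the authors' deposited table and 0.65 over the genes listed higher. These medians are likewise a description. Those of the members, DSC2 included, and of all genes mix both signs, so neither is like that over the genes listed higher. The table holds no entry smaller than 0.537 in size, and its entries cover 3.02% of RefSeq protein-coding genes (1.82% listed higher).

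**Figure D1:**
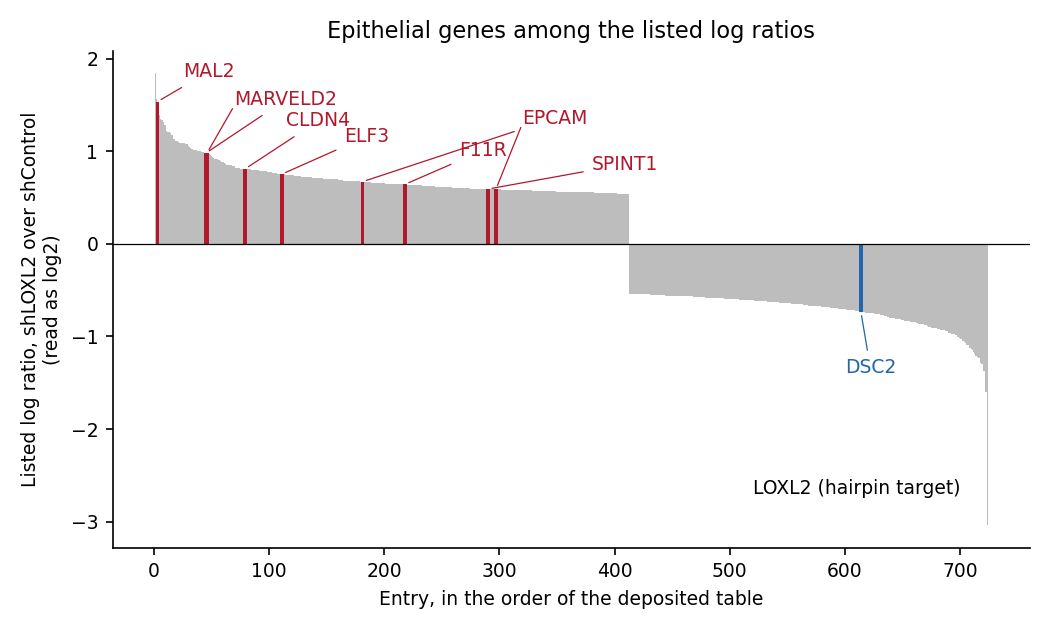
The 724 log ratios of the authors' deposited table in its own order, shLOXL2 over shControl and read as log2, with the 10 entries of the 8 genes in red (listed higher) or blue (listed lower). MAL2 stands at place 3 from the top, SPINT1 and the lower EPCAM entry lie near the smallest listed values, and DSC2 is the one member below 0.

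Among the tight junction genes, MARVELD2, which encodes tricellulin, the protein that seals the points where 3 cells meet, had the highest value, 0.98 in the authors' deposited table (1.97-fold if log2). It has 2 entries there, and they are equal to the last printed digit. Of 31 gene symbols with several entries in the authors' deposited table, 8 repeated a value, and for 5 of these all entries were equal. No 2 probe sets on the arrays had equal values on all 6 arrays. CLDN4, a claudin of barrier-forming epithelia, had 0.81 (1.75-fold). F11R, the junctional adhesion molecule A, an immunoglobulin-like protein that binds the polarity protein PARD3, had 0.64 (1.56-fold). In the authors' deposited table these 3 were the only ones with an entry among 21 tight junction genes listed for this work, and each had a positive value. All 3 are members chosen on their values, so their number and signs are a description. None of the other 18 had an entry.

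A neighbour of MARVELD2 in function is LSR (angulin-1), which brings tricellulin to 3-cell contacts. Its value in the authors' deposited table, 0.845, lay between those of MARVELD2 and CLDN4. MAGI1, a scaffold of the tight junction, had a value of the other sign in the authors' deposited table, -0.83. MAGI1 was in none of the lists and was picked out after its value was seen.

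DSC2, a desmosomal cadherin, was the one member with a negative value in the authors' deposited table, -0.73 (1.66-fold lower if log2). It stood at place 98 of the 276 genes listed lower. It was also the one gene with an entry among 15 desmosome genes. DSC2, the one desmosome member, thus had the opposite sign to the tight junction members in the authors' deposited table. A single gene gives no contrast between kinds of junction.

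MAL2, a membrane protein that carries cargo from the basolateral to the apical surface in polarised cells, had the highest log ratio of the 8, 1.54 in the authors' deposited table (2.90-fold if log2). It stood at place 3 of the 373 genes listed higher. Its gap of 0.56 to the next member, MARVELD2, was wider than any other gap in the order of the 7 genes listed higher, the next being 0.17. None of the other 12 apical traffic genes had an entry in the authors' deposited table.

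At the cell surface, EPCAM, an adhesion molecule that also binds claudins, had 2 entries in the authors' deposited table, 0.67 and 0.59, with a mean of 0.63 (1.55-fold if log2). They differ by 0.081, while the 2 entries of MARVELD2 are equal. The EPCAM entries lie on either side of F11R at 0.64 and of SPINT1 at 0.59, so EPCAM has no settled place in the order. SPINT1, a Kunitz-type inhibitor of the membrane protease matriptase, lay 0.055 above the smallest listed size. Its target ST14 had no entry analysed here. With LSR, 3 of 10 genes of the epithelial surface and its protease inhibitors had an entry in the authors' deposited table, each with a positive value. EPCAM and SPINT1 are members chosen on their values, and of the other 8 genes only LSR had an entry.

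ELF3, an ETS transcription factor of epithelia, was listed at 0.75 in the authors' deposited table (1.69-fold if log2). It was the one gene with an entry among 16 epithelial transcription and splicing factors, so GRHL2, OVOL1, OVOL2, ESRP1 and the others of that list had no entry analysed here. These folds rest on the reading as log2. Entries in natural logs would put MAL2 at 2.22 and LOXL2 at -4.38 on the log2 scale, whereas the largest rise and fall of any array probe set were 1.93 and -3.08. The smallest listed size would become 0.775, which 384 probe sets reached, fewer than the 724 entries. Read as log2 it is 0.537, which 1322 probe sets reached, more than the entries. Of the entries 412 were listed higher and 312 lower, whereas at a size of 0.54 597 probe sets were higher and 700 lower. The entries thus matched the plain array differences in number under neither reading. Only as log2 did the probe sets that far outnumber the entries. Only then did LOXL2, at -3.04, and MAL2 lie within the largest array fall and rise.

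Other parts of the epithelial programme had no entry in the authors' deposited table. This held for 12 adherens junction genes, CDH1 (E-cadherin) among them, 13 genes of the polarity complexes and 15 keratins. Over the 7 epithelial lists, 9 of 100 genes had an entry, 8 listed higher and 1 lower, with a median of 0.75. The 8 members are among these 9, so the signs and the median rest on values the members were chosen on. Without the 8 members 1 of 92 was left (1.09%), LSR, and the share over all protein-coding genes was 3.02%. Of 25 mesenchymal genes and transition factors 1 had an entry in the authors' deposited table, the matrix glycoprotein TNC at -0.91. VIM, CDH2, SNAI1, SNAI2, ZEB1 and ZEB2 had none analysed here. A gene without an entry may have changed by less than 0.537, or have been left out by a rule that the authors' deposited table does not state.

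**Figure D2:**
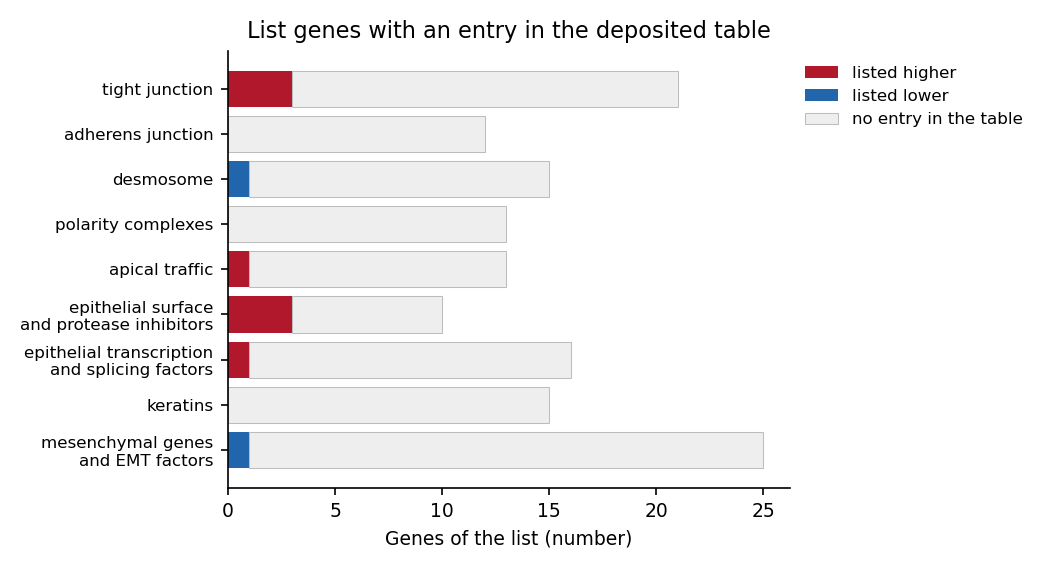
Number of genes in each list that had an entry in the authors' deposited table, listed higher (red) or lower (blue) in shLOXL2 cells, with the rest of the list in grey. Entries are few in every list, with 3 of 21 tight junction genes and 3 of 10 surface and inhibitor genes listed higher and none of 12 adherens junction genes present. All epithelial entries except LSR are members, which were chosen on their values. Of all protein-coding genes 1.82% were listed higher.

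The authors' deposited table has a column for the location in the cell, which was not used to choose the members. It is blank for 30 entries and reads unknown for 174. Plasma membrane was given for 6 of the 10 member entries (MAL2, CLDN4, F11R, DSC2 and both of EPCAM), 5 of them listed higher. Of the other 78 plasma membrane entries of the authors' deposited table, 32 were listed higher and 46 lower (41.0% higher). Nuclear entries other than ELF3 were listed higher in 81.2% of cases, 147 of 181. The members at the membrane were thus listed mostly against the direction of the other membrane entries and ELF3 with that of the other nuclear ones, which is a description, since the members were chosen on their values. For MARVELD2 the location is given as unknown in the authors' deposited table, although the protein spans the membrane. LSR (0.845), named above for its part at cell contacts, is given as nuclear there and is among the 147. SPINT1, counted above with the genes of the epithelial surface, is given as extracellular space. The locations were used as given, so the split by location rests on classes that were not checked.

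**Figure D3:**
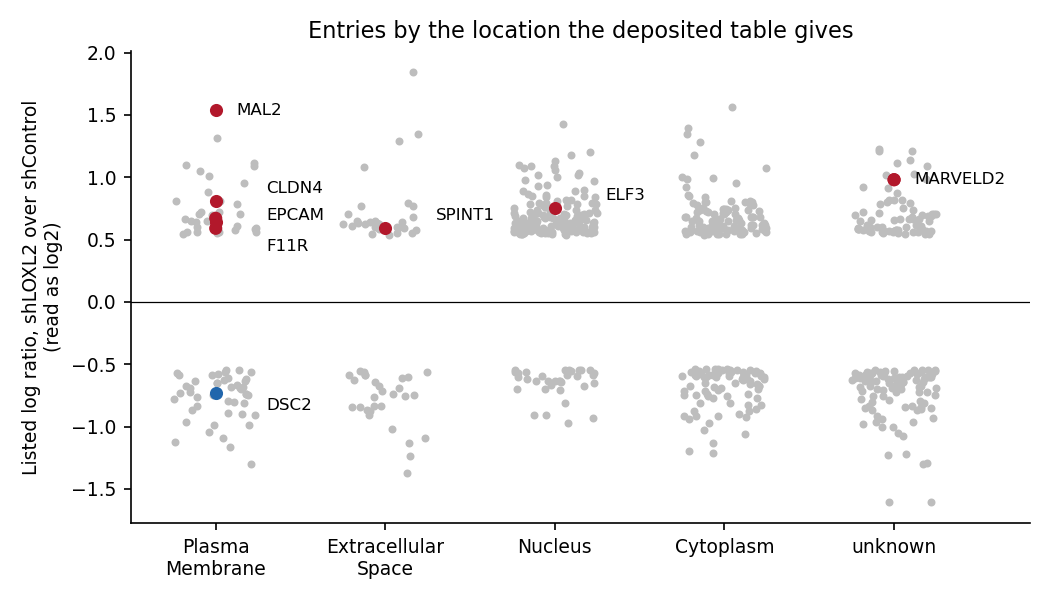
Listed log ratio of entries by the location given in the authors' deposited table, with members in red (higher) or blue (lower) and other entries in grey, jittered sideways. LOXL2 and the 30 entries with no location are left out. Among the plasma membrane entries, members sit in the upper band except DSC2, while most grey points lie below 0. The members were chosen on these values, so this contrast is a description. Points are entries, and both of EPCAM are drawn.

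By listed value, the genes most like a member were those ranked next to it. In the authors' deposited table MARVELD2 stood between CEP55 and COXFA4L3 (0.98 and 0.97), CLDN4 between EPN1 and GNPDA1 (0.81 and 0.81), and DSC2 between GPR135 and DGKD (-0.73 and -0.74). These neighbours differ from the member by at most 0.006, less than the 2 EPCAM entries differ from each other. Likeness over a single comparison has little content.

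Genes that lie beside the members on the chromosome were mostly without an entry. Of the 80 protein-coding genes within 5 places on either side of a member (RefSeq order, GRCh38.p14), 2 had an entry (2.5%, against 3.02% of all protein-coding genes). LIMK1, a kinase of the actin cytoskeleton and the fourth gene after CLDN4, was listed at 0.55, and SAMD12, the third gene before MAL2, at -0.63 in the authors' deposited table. The relatives that adjoin the members, OCLN beside MARVELD2, CLDN3 beside CLDN4, and DSC1 and DSC3 beside DSC2, had no entry analysed here. Opposite signs within a locus were thus seen for MAL2 and SAMD12, and like signs for CLDN4 and LIMK1. The count goes by symbol. GTF2H2C, the second gene after MARVELD2, had no entry, but the like-named GTF2H2C_2 was listed at -0.54 in the authors' deposited table.

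RefSeq promoter sequences matched 5 of the 8 genes, with 7 windows of 250 bases before an annotated start. Shown are the window of each of the 3 members with a match listed highest and the outermost window of DSC2, listed lower, as examples of how unlike these starts are. Each is written 5′ to 3′ on the gene's strand in GRCh38.p14, and capitals mark CACCTG or its reverse complement CAGGTG, the E-box bound by SNAI and ZEB repressors. The windows are those of MARVELD2 (chr5:69414866-69415115, + strand), CLDN4 (chr7:73830746-73830995, + strand), ELF3 (chr1:202010337-202010586, + strand) and DSC2 (chr18:31102422-31102671, - strand).
MARVELD2: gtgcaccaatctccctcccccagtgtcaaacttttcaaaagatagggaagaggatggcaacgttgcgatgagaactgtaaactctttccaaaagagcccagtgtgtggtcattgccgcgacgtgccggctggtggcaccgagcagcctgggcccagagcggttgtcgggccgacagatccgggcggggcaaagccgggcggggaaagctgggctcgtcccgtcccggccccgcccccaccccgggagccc
CLDN4: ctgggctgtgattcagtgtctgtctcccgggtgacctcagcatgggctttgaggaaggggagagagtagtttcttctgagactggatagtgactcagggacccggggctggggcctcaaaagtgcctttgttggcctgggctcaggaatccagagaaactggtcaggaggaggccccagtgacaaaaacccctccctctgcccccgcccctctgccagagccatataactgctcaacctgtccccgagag
ELF3: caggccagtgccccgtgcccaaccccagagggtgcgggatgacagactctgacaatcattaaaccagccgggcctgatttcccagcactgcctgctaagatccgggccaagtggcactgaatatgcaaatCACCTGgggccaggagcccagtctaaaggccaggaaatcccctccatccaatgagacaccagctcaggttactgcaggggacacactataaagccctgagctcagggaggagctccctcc
DSC2: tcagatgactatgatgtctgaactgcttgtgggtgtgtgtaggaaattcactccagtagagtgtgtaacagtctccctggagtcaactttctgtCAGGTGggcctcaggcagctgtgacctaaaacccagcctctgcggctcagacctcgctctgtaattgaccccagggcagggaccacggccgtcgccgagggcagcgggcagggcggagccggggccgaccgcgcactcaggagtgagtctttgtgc

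The E-box CACCTG was found on either strand in 3 of the 7 windows, those of ELF3 (first base at -120 from the start), DSC2 (-156) and the inner window of SPINT1 (-26). Of all 35116 RefSeq promoter windows of that length, 17.5% held it. It was present both in genes listed higher and in the gene listed lower, and absent from the windows of MARVELD2 and CLDN4. The GC box GGGCGG was in 5 of the 7 windows (42.6% of all), 3 times each in that of MARVELD2 and in the outer window of SPINT1. The AP-1 site TGANTCA occurred at -242 and -161 in CLDN4 alone (6.57% of all windows) and TATAAA at -34 in ELF3 alone (10.7% of all). The letters AACCGG of the grainyhead-like site (5.99% of all), the ETS site CCGGAAG (8.52%) and the TEAD site CATTCC (11.9%) were in none of the 7. Both strands were searched for each, and none of these matches is shown to be a bound site.

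The starts also differed in CpG content. The observed over expected CpG ratio was 0.190 in ELF3 and 0.185 in CLDN4, below the lower quartile of all windows (0.220). It was 0.733 in MARVELD2, 0.874 and 0.718 in the windows of SPINT1, and 0.545 and 0.706 in those of DSC2, around or above the median of 0.558. Genes listed higher thus included both CpG-poor and CpG-rich starts.

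**Figure D4:**
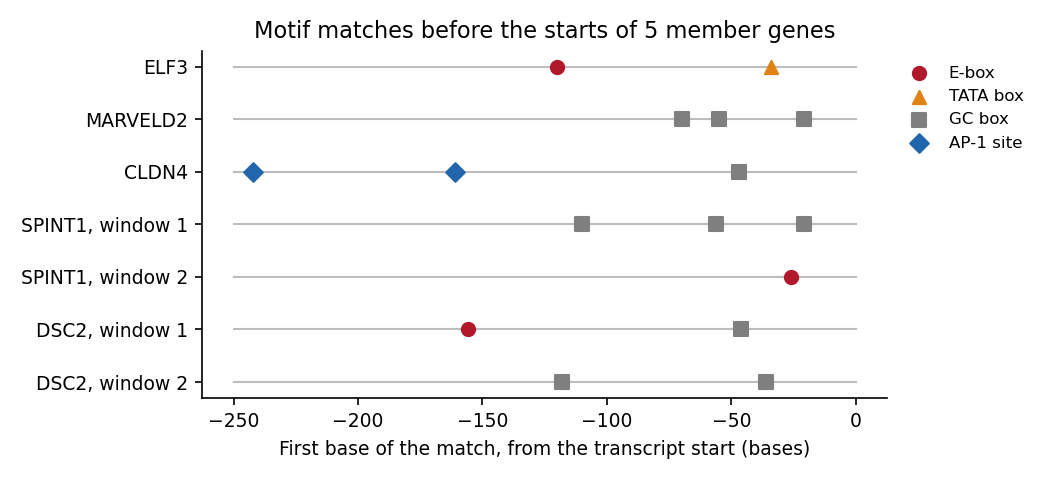
Positions of motif matches in the 250 bases before each annotated start of 5 member genes, on either strand, in bases from the start. E-boxes (circles) are in single windows of ELF3, SPINT1 and DSC2, AP-1 sites (diamonds) only in CLDN4, and GC boxes (squares) in 5 windows.

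The arrays show how precisely probe sets with an observed difference of the members' size were measured, although not the members themselves. Probe sets picked by their observed difference can have a larger spread than others, so their SE need not be that of a typical probe set. By limma across all 32321 probe sets, 1 passed an adjusted p of 0.05 (0.00309%), at a lower value in shLOXL2 cells, and 1781 had an unadjusted p under 0.05 (5.51%). A fit that took same-numbered arrays as blocks made 1 call by limma, that probe set again, and 2964 probe sets then had an unadjusted p under 0.05. A difference of at least 0.592 on the log2 scale, the value of SPINT1, was reached by 444 probe sets higher and 543 lower in shLOXL2 cells (987, or 3.05%). That balance turned to 535 higher and 469 lower after median centring and to 647 and 564 without shControl replicate 1. Of the 444, none passed the adjusted threshold by limma, and 232 had an unadjusted p under 0.05 (376 with the block, again with none past the adjusted threshold). In 193 of them the shLOXL2 and shControl arrays did not overlap. The 444 were picked for a large difference, so less overlap and lower p-values than elsewhere follow in part from that choice. Over all probe sets 4.53% did not overlap with higher and 6.21% with lower shLOXL2 values. The total of 987 went to 1695 without shLOXL2 replicate 2, and to 1491 and 1586 without shControl replicates 2 and 3.

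Standard errors depended on whether same-numbered arrays were treated as pairs. Among 257 probe sets within 0.05 of the SPINT1 value the median SE by limma was 0.256 and the 95% interval reached a median of 0.607 to either side. For 62 probe sets around the CLDN4 value these were 0.351 and 0.831, and for 27 around the MARVELD2 value 0.434 and 1.03. For 129 probe sets around the DSC2 value they were 0.289 and 0.684. With same-numbered arrays as blocks, the median SE by limma was 0.175 around SPINT1, 0.213 around CLDN4, 0.220 around MARVELD2 and 0.207 around DSC2. Median intervals then reached 0.431, 0.523, 0.541 and 0.509 to either side, less than the listed value in each case. Around SPINT1, CLDN4 and MARVELD2 they had reached further than the listed value without the block. The labels name no pairing, and the block was used because deviations of same-numbered arrays correlated in these same data. The smaller SE is therefore no independent measure of precision. A difference like that of MAL2 was rare, since 4 probe sets were at least 1.536 higher, 3 of them without overlap between the groups and none past the adjusted threshold by limma. The single call by limma was lost, with 0 probe sets called, when any 1 array was left out and with shControl replicate 1, the only control whose source name matches its title, as the sole control.

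**Figure D5:**
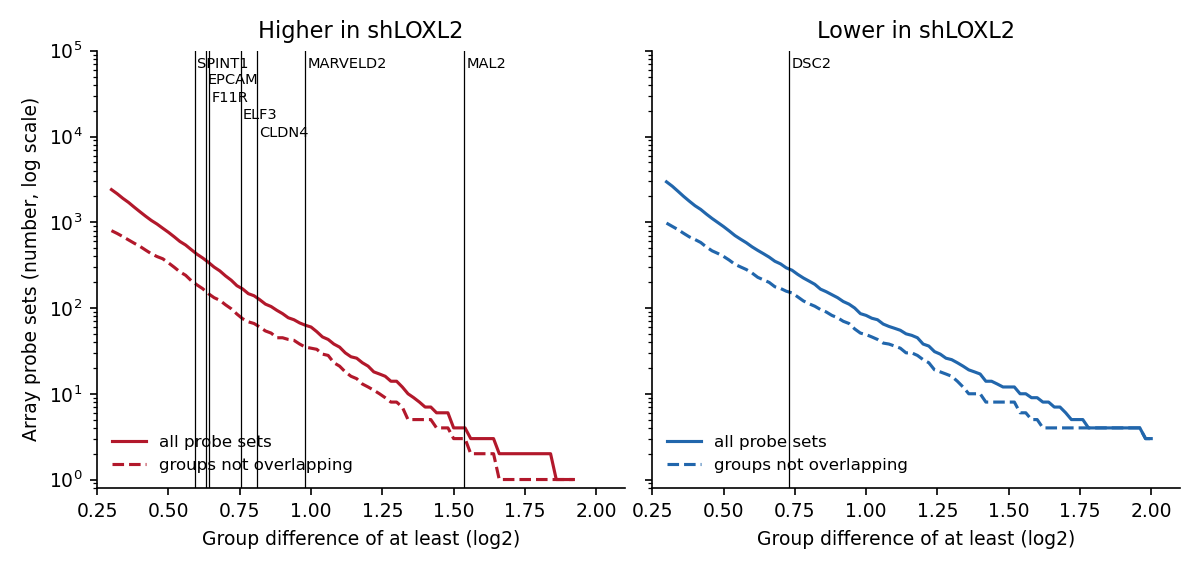
Number of array probe sets (log scale) with a group difference of at least the size on the x axis (log2), higher (left) or lower (right) in shLOXL2 cells, for all probe sets (solid) and for those whose groups did not overlap (dashed). Vertical lines mark the listed log ratios of the 8 genes, whose own probe sets are not identified. At the value of SPINT1 444 probe sets lie as high, and at that of MAL2 4 do.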

How the data were processed

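Total RNA of 6 samples was measured on arrays. The log2 values per probe set were deposited by the authors, and the submitters' processing notes name RMA (background correction, normalization between arrays, summary of probes). No source used here gives its version, a genome build or a probe annotation. A second deposited table holds the authors' log ratios, exported from Ingenuity Systems software per the file headers, with no log base, direction or selection rule stated.

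Decimal commas were converted and a leading question mark was read as minus, after which the 724 values fell from first to last with 0 breaks. Entries were named through RefSeq symbols (694 entries matched, 650 genes), several entries of a gene were averaged, and 1 gene with both signs was left out. Members and gene lists were chosen with earlier results of these data known. Named genes were the members, every list gene with an entry, LOXL2 and the entries ranked beside a member. MAGI1, LIMK1, SAMD12 and GTF2H2C_2 were added after their values were seen. None of the 7 blood and 8 fibroblast markers listed for this work had an entry analysed here. Of 6 endothelial markers KDR had one (-0.80 in the authors' deposited table). Genes of such cells outside these short lists were not looked up.

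Array values were fitted with limma 3.58.1 (R 4.3.3) with group as the only term and Benjamini-Hochberg adjustment, after the fit was tested on simulated data. The planned fit for members needs named probe sets and was not run. Deviations from group means of same-numbered arrays correlated at 0.354, 0.452 and 0.160 for replicates 1, 2 and 3, so the numbers were treated as pairs in an alternative, by the data and not the labels. Array medians were 5.74 to 5.82 (log2), and precision is limited by having 6 arrays.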

Additional observations from a re-analysis of the deposited data

How the results depend on the processing

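The 1 call by limma kept its count under median centring, quantile normalization, trend and robust moderation, and without probe sets below the median level. With the replicate block it was 1 call again and 987 probe sets of the smallest member's size, and the call was the same probe set, so the block changed no call. It took the probe sets at an unadjusted p under 0.05 by limma from 1781 to 2964 and, an alternative added after seeing the data, made the median SE near each of the 8 listed values smaller. There were 0 calls with shControl replicate 1 alone as control (3975 probe sets at an unadjusted p under 0.05 by limma) and 0 to 0 with any 1 array left out (1063 to 2250). The 987 probe sets became 566 without those below the median level, 4049 with shControl replicate 1 alone, its spread being taken from the shLOXL2 arrays, and 996 to 1695 with 1 array left out. Without those below the median level the split was 295 higher and 271 lower, and without shControl replicate 2 it was 771 and 720. It was 584 and 1002 without shControl replicate 3. Without shLOXL2 replicates 1, 2 and 3 it was 436 and 560, 839 and 856, and 525 and 730. The splits after median centring and without shControl replicate 1 are given with the result. The cause was not tested, beyond the fewer probe sets or arrays in those fits. In the authors' deposited table, 9 epithelial list genes were found with either way of matching symbols and 6 among entries at or above the median size. EPCAM is 0.67 instead of 0.63 by its entry farthest from 0, and no other member moves. With natural logs all 8 folds would be larger (4.65 instead of 2.90 for MAL2, at 2.22 on the log2 scale, beyond the largest array rise of 1.93). The number of arrays limits what could be detected, and without probe annotation no member could be tested.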
